A study of Homo sapiens with 6 samples.

Results

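The genes described here are 9 transcription factors that build the kidney in the embryo, chosen by name: PAX2, PAX8, LHX1, WT1, TCF21, EMX2, SALL1, GATA2 and GATA3. Of these, 8 had a row among the 31831 genes of the count table and 7 had enough counts to be tested. EMX2 was not analysed here, since no row carried its symbol. Poly(A) RNA was sequenced from HK-2 cells, a line of human proximal tubule epithelium immortalized with papillomavirus genes. All cells were kept in 30 mM glucose for 72 h. The control group (HG-NC) carried the empty vector and the other group (HG-OE) carried the hnRNP-F overexpression vector, with 3 libraries in each. The labels call the control vector a plasmid and the study's methods describe a lentivirus, and no source used here says whether the cells were a clone.

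The kidney grows from the nephric duct and its branch, the ureteric bud, and from the mesenchyme around them. PAX2 and PAX8 are paired-box factors that start the lineage together with the LIM homeodomain factor LHX1, and the zinc finger factors GATA2 and GATA3 act in the duct and the urinary tract. WT1, SALL1 and the bHLH factor TCF21 act in the mesenchyme, and WT1 and TCF21 later mark podocytes. PAX8 stays on in adult tubule epithelium and is used as a marker of kidney cells.

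Promoter sequences are given for the members whose level moved and for which RefSeq held a window, to show the annotated start regions of these genes. Windows on GRCh38.p14 covered 7 of the 9 members with 17 start sites, from 250 bases before each start to 50 after it. LHX1 and SALL1 were not matched. Capitals mark the letters GATAA, the core that GATA factors read, searched on both strands.

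PAX8 (chr2:113278872-113279171, minus strand): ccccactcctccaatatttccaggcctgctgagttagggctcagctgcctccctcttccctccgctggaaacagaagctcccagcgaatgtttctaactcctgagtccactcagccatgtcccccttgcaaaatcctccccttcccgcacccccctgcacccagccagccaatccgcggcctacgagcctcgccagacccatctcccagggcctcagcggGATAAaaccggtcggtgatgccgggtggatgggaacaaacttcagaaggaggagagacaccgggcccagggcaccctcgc

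TCF21 (chr6:133888863-133889162, plus strand): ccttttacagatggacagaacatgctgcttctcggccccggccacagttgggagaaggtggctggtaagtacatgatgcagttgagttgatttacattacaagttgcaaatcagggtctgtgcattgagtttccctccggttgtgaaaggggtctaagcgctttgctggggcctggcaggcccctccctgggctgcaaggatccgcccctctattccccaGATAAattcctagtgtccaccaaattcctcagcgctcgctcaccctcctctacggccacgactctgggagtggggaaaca

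GATA2, first start (chr3:128493152-128493451, minus strand): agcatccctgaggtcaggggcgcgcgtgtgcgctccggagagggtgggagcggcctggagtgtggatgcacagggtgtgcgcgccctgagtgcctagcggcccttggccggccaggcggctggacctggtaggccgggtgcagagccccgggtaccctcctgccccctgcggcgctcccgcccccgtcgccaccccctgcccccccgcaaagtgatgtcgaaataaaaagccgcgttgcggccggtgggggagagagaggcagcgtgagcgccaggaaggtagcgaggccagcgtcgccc

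GATA2, second start (chr3:128488481-128488780, minus strand): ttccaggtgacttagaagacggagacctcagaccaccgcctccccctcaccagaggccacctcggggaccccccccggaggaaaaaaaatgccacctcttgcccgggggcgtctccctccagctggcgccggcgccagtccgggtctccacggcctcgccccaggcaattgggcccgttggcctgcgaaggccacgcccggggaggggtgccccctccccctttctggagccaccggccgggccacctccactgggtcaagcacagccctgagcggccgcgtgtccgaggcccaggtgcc

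GATAA began at position -30 from the start in the PAX8 window and also at position -30 in the TCF21 window. It was found in 22.7% of the 35116 promoter windows of all genes. Neither GATA2 window held these letters. The E-box CANNTG, the motif of bHLH factors such as TCF21, was found 3 times in the TCF21 window, 1 time in the PAX8 window and 4 times in the second GATA2 window, against 68.7% of all windows with at least 1. The LIM homeodomain core TAATTA, present in 4.84% of all windows, was in none of these 4. These matches describe the letters only, and counts per gene do not separate the start sites of GATA2.

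The libraries held 25507595 to 29444841 counted read pairs. HNRNPF, the gene of hnRNP-F, rose from 311 ± 7.23 CPM (counts scaled to a library of 1000000, mean ± SD, n = 3) in HG-NC to 435 ± 14.9 CPM in HG-OE. This was a log2 fold change of 0.48 (SE, the standard error, 0.0388, adjusted p = 2.8e-07). Here and below, p-values from edgeR's quasi-likelihood test are adjusted by the Benjamini-Hochberg method over 17142 genes, and a gene rose or fell where this value was under 0.05. The study calls the libraries of a group biological replicates, grown in parallel wells. The labels do not tie them to separate cultures, and the p-values measure the spread between these libraries.

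HG-OE replicate 3 stood apart from the other libraries. It held 4359 counts of ALB, the serum albumin gene of liver, against 0 to 78 in the others, and 334 counts of KRT5, a keratin of squamous epithelium, against 0. Its summed level of 15 liver markers without SERPINA1 was 418 CPM against 16.1 to 28.5 CPM in the other 5 libraries. Its 15 squamous markers summed to 93.3 CPM against 11.4 to 15.4 CPM. HG-NC replicate 3 had the second highest liver level, 28.5 CPM. The change of each tested member is therefore also given without HG-OE replicate 3 and without both replicate 3 libraries.

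Of the proximal tubule markers, 22 had a row, and their sum ranged from 77.5 to 80.4 CPM in the controls and from 80.8 to 101 CPM in HG-OE. Several defining ones were at or near 0. LRP2, the endocytic receptor megalin, had no count in 5 libraries and 17 in HG-OE replicate 3, and CUBN, its partner cubilin, had 10 to 16 counts. The oxygenase MIOX was well detected, with 744 to 1136 counts, and rose by 0.38 on the log2 scale (SE 0.0665, adjusted p = 0.000327).

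**Figure D1:**
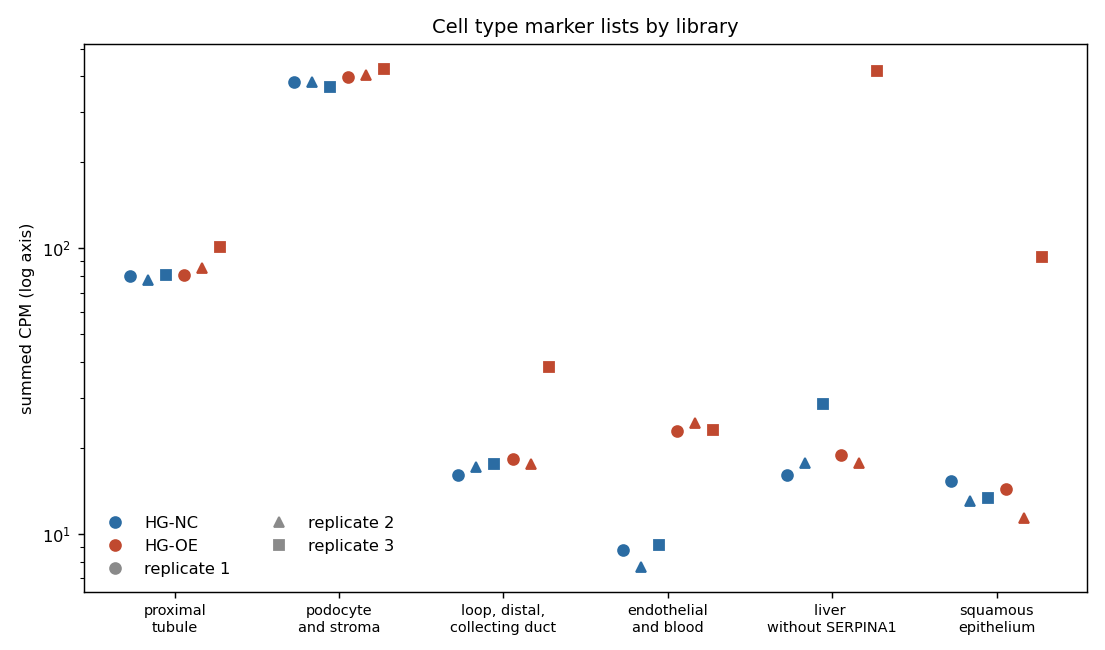
Summed CPM (log axis) of 6 cell type marker lists in each library, HG-NC in blue and HG-OE in red, with symbols for replicates 1 to 3 and SERPINA1 left out of the liver list. HG-OE replicate 3 lies at 418 CPM for liver and 93.3 CPM for squamous epithelium, above the other 5 libraries.

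In HG-OE cells, LHX1, SALL1 and TCF21 rose, PAX8 and GATA2 fell, and PAX2 and GATA3 did not pass the test. Over all genes tested, 25.9% rose and 25.9% fell, and the 3 rises and 2 falls among 7 members are to be read beside that background. TCF21 entered the test through its HG-OE counts alone, and the counts over tested members are a description. Where a change of at least 2-fold was required as well, as for a differentially expressed gene (DEG), TCF21 was higher and GATA2 lower, where 3.69% of all tested genes were higher and 2.13% lower. The groups did not overlap for 5 of the 7 members, against 59% of all genes tested. The smallest p of an exact two-sided permutation test with 3 libraries against 3 is 0.1, which these 5 members each reached.

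**Figure D2:**
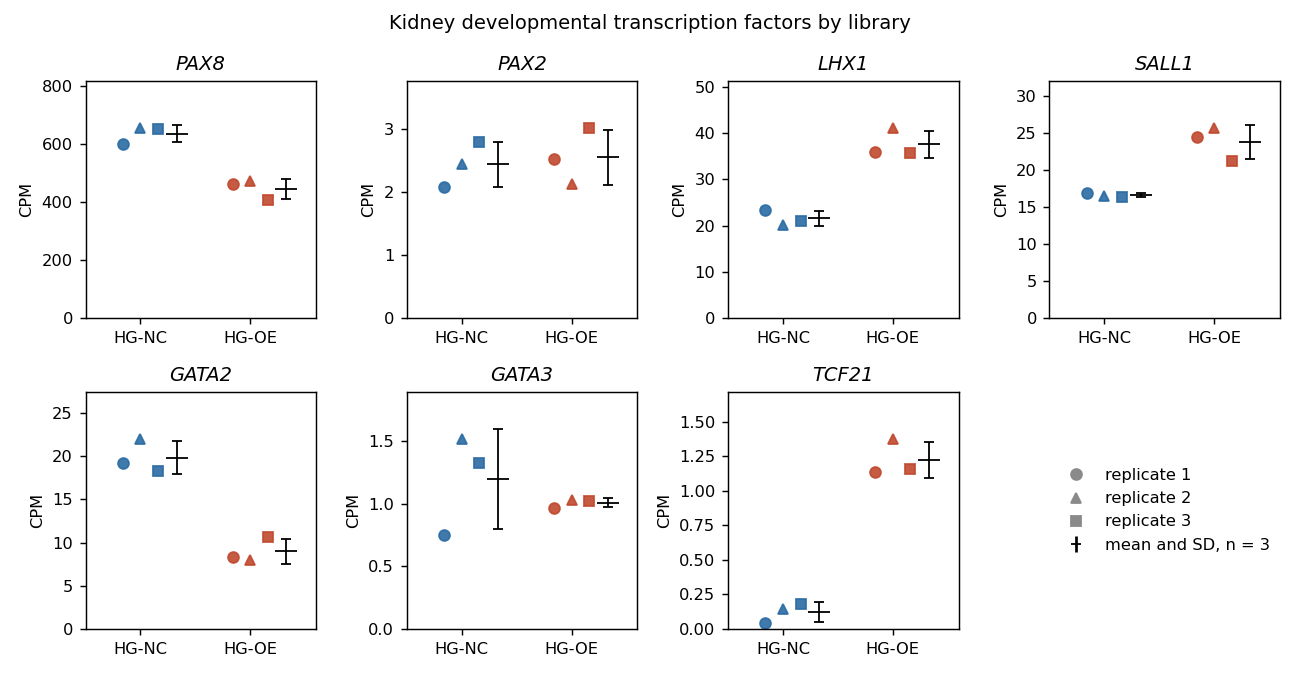
CPM of the 7 tested members in each library, each panel on its own axis from 0, with symbols for replicates 1 to 3 and the mean and SD of each group (n = 3) in black. The groups are apart for PAX8, LHX1, SALL1, GATA2 and TCF21 and overlap for PAX2 and GATA3.

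PAX8, which keeps the renal epithelial identity, was by far the most abundant member. Its levels were 603, 655 and 654 CPM in HG-NC replicates 1, 2 and 3 and 462, 472 and 408 CPM in HG-OE replicates 1, 2 and 3. Every HG-OE library lay below every HG-NC library, with replicate 3 the lowest. PAX8 fell to 70.2% of the control level, a log2 fold change of -0.51 (SE 0.0531, adjusted p = 3.04e-06). Without HG-OE replicate 3 the change was -0.45, and without both replicate 3 libraries it was -0.43. PAX8 (ENSG00000125618.18) lies on chromosome 2 of GRCh38 from 113215997 to 113278921. Among 55 other well-counted genes within 10 Mb the median change was -0.29 on the log2 scale, and the median of 809 such genes on chromosome 2 was -0.28. With the neighbours' median removed, -0.22 remained for PAX8. The part of this regional shift in the result was not tested. In bulk RNA, fewer cells with a transcript and less of it per cell cannot be told apart, here and for the other members.

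PAX8-AS1, an antisense RNA gene that overlaps PAX8 over 60585 bases, had 129 to 200 counts per library, against 11953 to 18291 for PAX8. Its level was 5.88 ± 0.589 CPM in the controls and 5.29 ± 1.33 CPM with overexpression, and it did not pass the test (log2 fold change -0.15, adjusted p = 0.469). Without HG-OE replicate 3, where it was highest, its log2 fold change was -0.38 (adjusted p = 0.0201). The libraries were directional, but whether strand was used in counting is not given in the sources used here, so reads of a gene and its antisense partner cannot be told apart.

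PAX2, the relative of PAX8 that drives the ureteric bud, was low. It had 53, 66 and 78 counts in HG-NC replicates 1, 2 and 3 and 73, 62 and 88 counts in HG-OE replicates 1, 2 and 3. The groups overlapped over most of their range. The log2 fold change was 0.06 with a 95% interval from -0.36 to 0.49 (adjusted p = 0.808), and a fall as large as that of PAX8 lay outside this interval. Its sign turned to -0.07 without HG-OE replicate 3, and the change was 0.04 without both replicate 3 libraries.

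LHX1, which acts with the PAX factors in the nephric duct and again in the first nephron vesicles, was at 23.4, 20.3 and 21.1 CPM in HG-NC replicates 1, 2 and 3. In HG-OE replicates 1, 2 and 3 it was at 36.0, 41.0 and 35.8 CPM. The HG-OE libraries lay well above the controls, and replicate 3 did not stand apart. LHX1 rose 1.74-fold, a log2 fold change of 0.80 (SE 0.0728, adjusted p = 8.71e-07). It rose by 0.84 without HG-OE replicate 3 and by 0.82 without both replicate 3 libraries. It lies on chromosome 17 from 36936785 to 36944612, where the median change of 231 neighbours within 10 Mb was -0.25 on the log2 scale, and 1.06 remained for LHX1 with that median removed. LHX1-DT, a lncRNA gene that starts 115 bases from LHX1 on the other strand, had 663 to 702 counts in HG-NC and 753 to 823 counts in HG-OE. It did not pass the test (log2 fold change 0.07, adjusted p = 0.364).

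GATA2, a zinc finger factor of blood progenitors and the urogenital tract, had 490, 595 and 511 counts in HG-NC replicates 1, 2 and 3. It had 241, 232 and 312 counts in HG-OE replicates 1, 2 and 3. Each of these lay below every control library, with replicate 3 the highest of them. GATA2 fell to 45.2% of the control level, a log2 fold change of -1.14 (SE 0.113, adjusted p = 1.91e-06). The fall was larger, -1.29, without HG-OE replicate 3 and -1.34 without both replicate 3 libraries. GATA2 lies on chromosome 3 from 128479427 to 128493201. Its 111 neighbours had a median of -0.14, and -1.01 remained for GATA2 with it removed. GATA2-AS1, which overlaps GATA2 over 3990 bases on the other strand, fell as well, from 9.09 ± 1.02 CPM to 6.06 ± 0.223 CPM (log2 fold change -0.58, SE 0.115, adjusted p = 0.000747).

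GATA3, which acts downstream of PAX2 and PAX8 in the nephric duct and marks the distal nephron, had only 19, 41 and 37 counts in HG-NC replicates 1, 2 and 3 and 28, 30 and 30 counts in HG-OE replicates 1, 2 and 3. The HG-OE libraries lay inside the range of the controls. Its log2 fold change was -0.25 with a 95% interval from -0.88 to 0.37 (adjusted p = 0.493). A fall of the size of GATA2's was outside this interval, and a fall of the size of PAX8's was inside it. The change was -0.27 without HG-OE replicate 3 and -0.19 without both replicate 3 libraries.

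SALL1, a zinc finger factor of the nephron progenitors, was at 17.0, 16.6 and 16.4 CPM in HG-NC replicates 1, 2 and 3. It was at 24.5, 25.7 and 21.2 CPM in HG-OE replicates 1, 2 and 3. The controls were close together, and the lowest HG-OE library, replicate 3, was still above them. SALL1 rose 1.43-fold, a log2 fold change of 0.52 (SE 0.0795, adjusted p = 0.000102). It rose by 0.59 without HG-OE replicate 3 and by 0.58 without both replicate 3 libraries. It lies on chromosome 16 from 51135982 to 51152334, and its 67 neighbours had a median of -0.05.

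TCF21, a bHLH factor of the stroma and of podocytes, had 1, 4 and 5 counts in HG-NC replicates 1, 2 and 3 and 33, 40 and 34 counts in HG-OE replicates 1, 2 and 3. Its level was near 0 in the controls and low but even in the HG-OE libraries. The summed counts, scaled to library size, were 9.85 times as high in HG-OE (95% interval 5.15 to 21.1, counting error only). The fitted log2 fold change was 3.26 (SE 0.413, adjusted p = 1.85e-05). It was 3.29 without HG-OE replicate 3 and 3.66 without both replicate 3 libraries. TCF21 lies on chromosome 6 from 133889113 to 133895553, and its 59 neighbours had a median of -0.40. TARID, a lncRNA gene that overlaps TCF21 over 3690 bases on the other strand, had 8 to 25 counts per library and did not pass the test (log2 fold change -0.45, adjusted p = 0.393).

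WT1, the zinc finger factor needed for the kidney to form and kept in podocytes, had 1 count in HG-NC replicate 1 and 0 in the other 5 libraries. At 0 counts, a true level of up to 3 counts per library remains possible from counting error alone. A level of WT1 was not detectable at this depth in either group, and no fold is given.

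**Figure D3:**
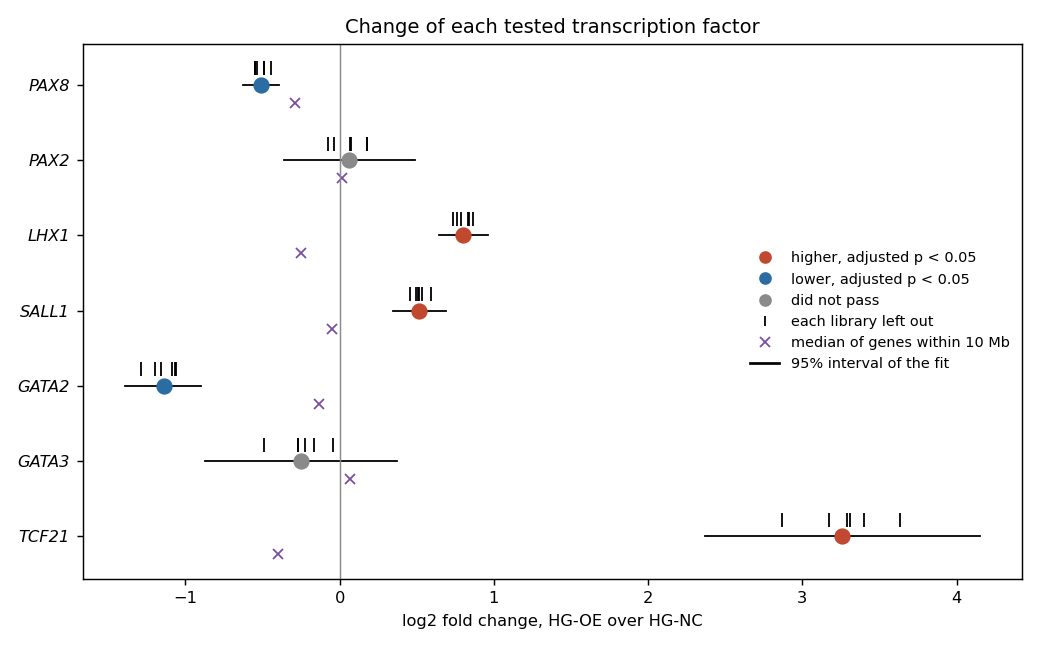
Log2 fold change (HG-OE over HG-NC) of the 7 tested members with its 95% interval, small ticks for the value with each library left out and crosses for the median of other genes within 10 Mb. TCF21 lies at 3.26, LHX1 at 0.80 and SALL1 at 0.52, GATA2 at -1.14 and PAX8 at -0.51, and the ticks of PAX2 fall on both sides of 0.

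Levels of different genes were compared per length, as FPKM. In HG-NC, PAX8 was at 77.4 ± 3.81 FPKM (mean ± SD), above 97.5% of 17421 protein-coding genes. GATA2 at 3.97 ± 0.376 FPKM and LHX1 at 3.92 ± 0.287 FPKM followed, and the libraries of these neighbours in the order overlapped. SALL1 came next at 2.63 ± 0.0361 FPKM. PAX2 at 0.33 ± 0.050 FPKM and GATA3 at 0.317 ± 0.104 FPKM also overlapped, and TCF21 was last at 0.030 ± 0.0173 FPKM. In HG-OE, the order was PAX8 at 53.7 ± 4.10 FPKM, LHX1 at 6.77 ± 0.498 FPKM, SALL1 at 3.72 ± 0.361 FPKM and GATA2 at 1.78 ± 0.291 FPKM. GATA2 thus stood above SALL1 in the controls and below it in HG-OE, without overlap in either group. Below them, PAX2 at 0.34 ± 0.060 FPKM and TCF21 at 0.297 ± 0.0289 FPKM overlapped, and GATA3 was last at 0.263 ± 0.0115 FPKM.

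The genes that act with these factors in kidney development were taken as 103 names in 4 lists (other kidney transcription factors, ureteric bud signals, nephron induction signals and targets of the members). Of 66 tested, 20 rose (30.3%) and 24 fell (36.4%), where 25.9% of all tested genes rose and 25.9% fell. Without HG-OE replicate 3, 20 rose and 26 fell. Their median log2 fold change was -0.01, against 0.01 over all genes.

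Of 26 other kidney transcription factors tested, 5 rose (19.2%) and 9 fell (34.6%), with a median of -0.02. FOXC2, a forkhead factor of the mesenchyme, rose from 1.36 ± 0.531 CPM to 5.73 ± 0.958 CPM (log2 fold change 2.07, SE 0.235, adjusted p = 6.79e-06). HEY1 rose by 0.86 (adjusted p = 8.16e-05). FOXD1, the forkhead factor of the renal stroma, fell from 76.4 ± 3.20 CPM to 47.4 ± 3.46 CPM (log2 fold change -0.69, SE 0.0574, adjusted p = 3.95e-07). SOX11 fell by 1.62 on the log2 scale (adjusted p = 1.54e-05). HNF4A, the factor of the mature proximal tubule and of liver, had no count in 5 libraries and 323 counts in HG-OE replicate 3. HG-OE replicate 3 is the library with the liver markers, and HNF4A was not tested.

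Of 16 ureteric bud signals tested, 9 fell (56.2%) and 2 rose (12.5%), beside 25.9% in each direction over all tested genes, with a median log2 fold change of -0.255. GDNF, the signal from the mesenchyme that draws out the bud, fell from 12.4 ± 2.05 CPM to 8.19 ± 0.321 CPM (log2 fold change -0.60, SE 0.118, adjusted p = 0.00078). Its co-receptor GFRA1 fell from 337 ± 3.66 CPM to 230 ± 13.2 CPM (log2 fold change -0.55, SE 0.0438, adjusted p = 2.59e-07). The kinase RET, which GDNF and GFRA1 engage together, was low at 17 to 47 counts per library and did not pass the test (log2 fold change -0.22, adjusted p = 0.586). WNT7B, a WNT ligand of the collecting duct stalk, fell from 36.6 ± 2.36 CPM to 15.1 ± 0.407 CPM (log2 fold change -1.28, SE 0.0664, adjusted p = 6.2e-09). FREM2, a protein of the bud's basement membrane, and GRIP1, which brings it to the cell surface, fell by 0.57 and 1.27 on the log2 scale (adjusted p = 0.0122 and 0.0171). GRIP1 entered the test through its HG-NC counts, with 6, 23 and 10 counts in HG-OE replicates 1, 2 and 3.

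Of 17 nephron induction signals tested, 9 rose (52.9%) and 4 fell (23.5%), beside 25.9% in each direction over all tested genes, with a median log2 fold change of 0.405. The rises include CDH4, which had 4, 8 and 8 counts in HG-NC replicates 1, 2 and 3. CDH4 entered the test through its HG-OE counts alone (21, 33 and 35), and its call is a description. At 2-fold or more, 7 rose and 2 fell with all libraries, where 3.69% of all tested genes were higher and 2.13% lower. Without HG-OE replicate 3, 4 rose and 2 fell, where 626 of all 17366 genes tested were higher and 457 lower. Both counts of rises include CDH4. WNT4, the signal with which mesenchyme turns into epithelium, fell from 1.75 ± 0.579 CPM to 0.446 ± 0.239 CPM (log2 fold change -1.97, SE 0.393, adjusted p = 0.000837). WNT4 entered the test through its HG-NC counts, with 5, 18 and 16 counts in HG-OE replicates 1, 2 and 3. LAMA1, a laminin chain of the early nephron, rose from 20.4 ± 0.679 CPM to 46.7 ± 4.38 CPM (log2 fold change 1.20, SE 0.0702, adjusted p = 1.7e-08). FGFR3, a receptor of fibroblast growth factors, was at 5.51, 5.32 and 23.7 CPM in HG-OE replicates 1, 2 and 3 and at 4.08 to 4.68 CPM in HG-NC. Its rise of 1.42 on the log2 scale (adjusted p = 0.0163) became 0.33 without HG-OE replicate 3 (adjusted p = 0.046). FZD8, a WNT receptor, likewise rose by 1.38 (adjusted p = 0.00644) and by 0.89 without that library (adjusted p = 0.046).

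Of 12 tested genes known as targets of the members, 4 rose and 4 fell (33.3% each, beside 25.9% each over all tested genes), with a median log2 fold change of -0.255. CDH16, the kidney cadherin that PAX8 activates, rose from 42.3 ± 1.22 CPM to 64.8 ± 7.15 CPM (log2 fold change 0.61, SE 0.0706, adjusted p = 7.45e-06) while PAX8 itself fell. Among targets of WT1, which had no detectable level, the podocyte sialomucin PODXL rose by 0.73 (adjusted p = 6.57e-05) and the growth factor AREG fell by 0.96 on the log2 scale (adjusted p = 2.04e-07). IGF2, chosen after its values were seen, had 7 to 32 counts in 5 libraries and 1045 in HG-OE replicate 3, and its call was lost without that library (adjusted p = 0.146).

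**Figure D4:**
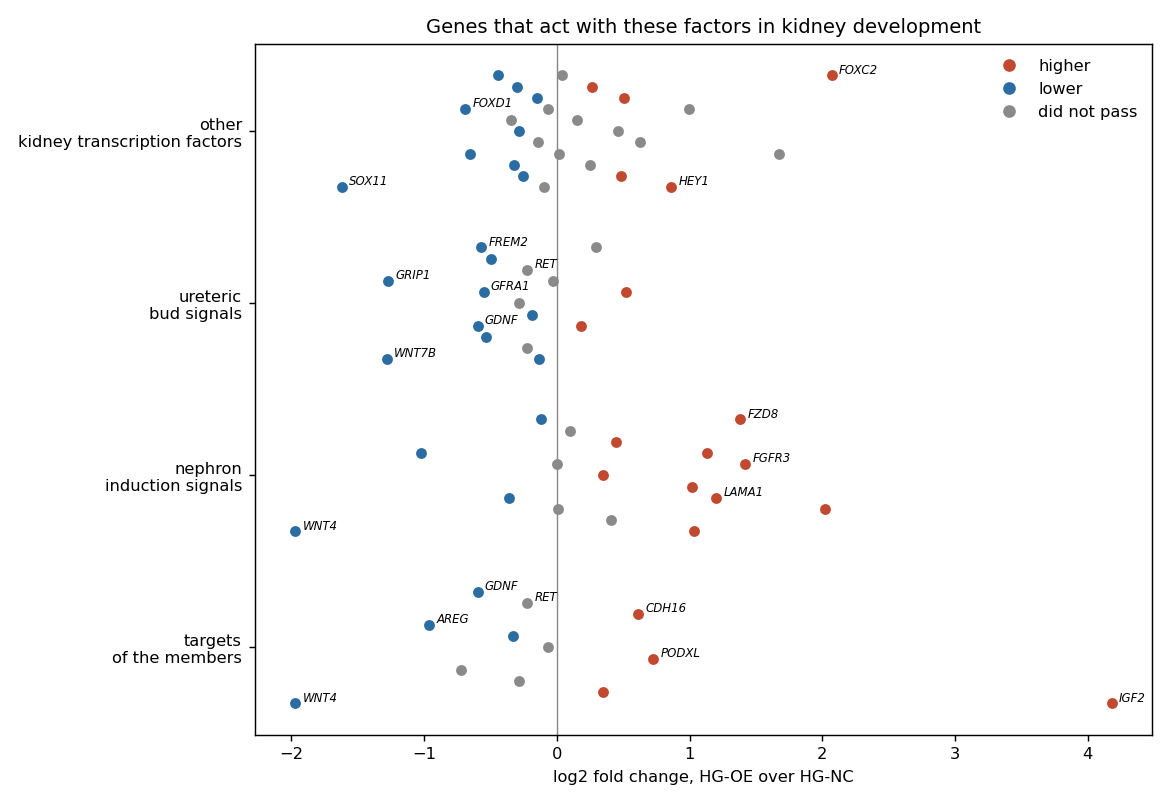
Log2 fold change (HG-OE over HG-NC) of the tested genes in the 4 lists of kidney development, with genes that rose in red, genes that fell in blue and the others in grey. Genes named in the text are labelled, apart from CDH4 and NPHS1. The vertical position within a list has no meaning. Of the ureteric bud signals 9 lie below 0 in blue, and of the nephron induction signals 9 lie above 0 in red.

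Close relatives of the members were also measured, and 12 of them were tested. Of these, 3 rose (25%) and 4 fell (33.3%), beside 25.9% in each direction over all tested genes. In the PAX family, PAX6, the eye and islet factor, rose from 32.7 ± 0.911 CPM to 37.5 ± 1.10 CPM (log2 fold change 0.20, adjusted p = 0.00664). PAX9, a factor of the pharyngeal pouches, fell from 2.25 ± 0.650 CPM to 0.800 ± 0.151 CPM (log2 fold change -1.49, adjusted p = 0.00041). In the GATA family, GATA6 rose by 0.54 (SE 0.0982, adjusted p = 0.000431), the opposite direction to GATA2. GATA4 had 0 or 1 count in 5 libraries and 219 in HG-OE replicate 3, and is named here after its values were seen. Among the LIM homeodomain relatives of LHX1, LHX6 fell by 0.23 on the log2 scale (adjusted p = 0.0247), and LHX2 (log2 fold change -0.0035, adjusted p = 0.981) and LHX9 (log2 fold change -0.48, adjusted p = 0.401) did not pass. SALL2 did not pass either (log2 fold change 0.245, adjusted p = 0.136). The bHLH relatives of TCF21 were TCF24, which fell by 0.31 on the log2 scale (adjusted p = 0.0361), TCF15 (log2 fold change -0.43, adjusted p = 0.326) and MSC (log2 fold change 0.07, adjusted p = 0.711). Of the zinc finger relatives of WT1, EGR1 rose by 1.53 (adjusted p = 3.18e-05) and EGR2 fell by 0.38 on the log2 scale (adjusted p = 0.00922).

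The genes whose pattern lay nearest to a member's were found by the Euclidean distance of centred log2 CPM over the 6 libraries, among 11562 protein-coding genes with a mean of at least 100 counts. Nearest to PAX8 were MRC2, a collagen receptor, at a distance of 0.0391 and KCTD14 at 0.0418. Nearest to LHX1 were the semaphorin SEMA3F at 0.0874 and ASB2 at 0.0964. Nearest to SALL1 were the mitochondrial thymidine kinase TK2 at 0.0928 and the kinase-like adaptor IRAK2 at 0.0972. GATA2, with the largest change and the lowest counts of the members compared here, had the least close neighbours. They were the cytochrome P450 gene CYP2S1 at 0.126 and the interferon-induced gene IFI44 at 0.255, with log2 fold changes of -1.21 and -0.998.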

How the data were processed

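Directional libraries of poly(A) RNA from HK-2 cells in 30 mM glucose were sequenced as read pairs. Per the labels, the reads were aligned with HISAT2 to GRCh38, and the authors deposited whole-number counts of read pairs per gene without normalization, and FPKM values per gene. The study names a batch correction, and whether it entered these counts is not given in the sources used here, nor are the HISAT2 version and the strand setting of the counting. Uneven correction or strand-blind counting could shift the counts of single genes.

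Libraries were grouped by their labels. The tests on counts used edgeR 4.0.16 in R 4.3.3 (TMM, default low-count filter, quasi-likelihood test), which kept 17142 of 31831 genes. CPM are scaled by TMM. Alternatives used DESeq2 1.42.0 and limma 3.58.1, the latter on log2 FPKM with pseudocounts of 1 and 0.1, and each library left out. Steps were tested on simulated data. Library depth was 25507595 to 29444841 counted pairs, and intervals of counts cover counting error only.

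The members and gene lists were chosen with earlier results of these data known. Named genes were HNRNPF, the members, RET, GDNF, GFRA1, WNT4 and HNF4A, up to 4 further genes per list with the largest change among those with adjusted p under 0.05, a mean of at least 20 counts and no overlap of the groups, all tested relatives and lncRNA genes, and the 2 nearest patterns per member with a mean of at least 100 counts. Other named genes were chosen after their values were seen. Some genes that the rule names are not reported here. Positions come from GENCODE and promoters from RefSeq.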

Additional observations from a re-analysis of the deposited data

How the results depend on the processing

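With each library left out in turn, 3 members rose and 2 fell each time, and the changes stayed between -0.55 and -0.45 for PAX8, 0.735 and 0.865 for LHX1, 2.87 and 3.63 for TCF21, 0.46 and 0.59 for SALL1, and -1.29 and -1.06 for GATA2. PAX2 ranged from -0.074 to 0.177, reversing to -0.033 without HG-NC replicate 1 and to -0.074 without HG-OE replicate 3, and GATA3 ranged from -0.49 to -0.05, and neither passed the test in any of these fits. Leaving out both replicate 3 libraries was added after the data were seen. With a 2-fold change required, 1 member was higher and 1 lower, 9 related kidney genes were higher and 5 lower, and over all genes 632 were higher and 365 lower, in place of 4446 and 4441. With the neighbours' median removed, PAX8 was at -0.22, LHX1 at 1.06 and HNRNPF at 0.39. On log2(FPKM + 1), where the pseudocount exceeds the FPKM of TCF21 in every library, TCF21 changed by only 0.33 and GATA2 by -0.84. The requirement of 10 counts in every library left TCF21 untested.

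The groups share replicate numbers 1 to 3, but the deviations of libraries with the same number correlated at only 0.055, 0.0575 and 0.0244, and HG-NC replicate 3 correlated more with HG-OE replicate 2 (0.0295). With the replicate number as a block, 4399 genes rose and 4450 fell, 3 members rose and 2 fell, and among related genes 20 rose and 22 fell.

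Depth limits WT1, TCF21, GATA3 and PAX2, whose counts per library were under 100 in both groups.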

Other observations

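TAL1, a bHLH factor of blood progenitors that works in complexes with GATA factors, rose from 5.51 ± 0.427 CPM in HG-NC to 20.7 ± 0.913 CPM in HG-OE (log2 fold change 1.91, SE 0.0915, adjusted p = 2.87e-09 by edgeR), while GATA2 fell. Of 4 markers of endothelium and blood tested, 2 rose (50%) and 1 fell (25%), beside 25.9% in each direction over all tested genes. Besides TAL1, VWF, the von Willebrand factor of endothelium, rose from 0.249 ± 0.0268 CPM to 0.836 ± 0.380 CPM (log2 fold change 1.73, adjusted p = 0.00444), and by 2.06 without HG-OE replicate 3. VWF was chosen after its values were seen. It had 7, 6 and 7 counts in HG-NC replicates 1, 2 and 3 and entered the test through its HG-OE counts alone. Its call is a description. ERG fell by 0.99 on the log2 scale (adjusted p = 0.0171), and 10 of the 14 markers with a row were not tested for lack of counts. TAL1 carried the difference in their sum. The other 13 markers summed to 2.66 to 3.51 CPM in HG-NC and 2.75 to 2.96 CPM in HG-OE.

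Of 11 tested markers of podocytes and stroma, 5 rose (45.5%) and 2 fell (18.2%), beside 25.9% in each direction over all tested genes. The 2 that fell were FOXD1, by 0.69 on the log2 scale (adjusted p = 3.95e-07), and CD2AP, by 0.20 (adjusted p = 0.000752). PDGFRB, a receptor of pericytes and mesangial cells, rose from 0.453 ± 0.172 CPM to 2.15 ± 0.120 CPM (log2 fold change 2.25, SE 0.286, adjusted p = 1.9e-05). It had 16, 12 and 8 counts in HG-NC replicates 1, 2 and 3, and entered the test through its HG-OE counts. Its call is a description. The intermediate filament gene NES rose by 1.07 (adjusted p = 1.11e-06) and PLA2R1, a phospholipase receptor of podocytes, by 0.69 (adjusted p = 2.21e-05). NPHS1, the podocyte gene nephrin and a target of WT1, had 15 to 43 counts and did not pass the test (log2 fold change -0.725, adjusted p = 0.0528).

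Of 10 tested proximal tubule markers, 3 rose (30%) and 1 fell (10%), beside 25.9% in each direction over all tested genes. The membrane peptidase MME rose by 1.02 (adjusted p = 3.49e-05) and the bicarbonate transporter SLC4A4 fell by 0.73 on the log2 scale (adjusted p = 4.02e-06). GATM, an enzyme of creatine synthesis, rose by 0.29 (adjusted p = 0.0188), and its call was lost without HG-OE replicate 3 (adjusted p = 0.0577). Of 5 tested markers of the loop, distal tubule and collecting duct, SCNN1A alone passed the test (20%, beside 25.9% in each direction over all tested genes). It rose by 0.36 (adjusted p = 0.026), and its call was also lost without that library (adjusted p = 0.102). CALB1 had 23 to 32 counts in HG-NC and 10, 13 and 41 in HG-OE replicates 1, 2 and 3. Without HG-OE replicate 3, CALB1 fell by 1.35 on the log2 scale (adjusted p = 0.00305). It entered the test through its HG-NC counts. In the liver list, SERPINA1 rose in every HG-OE library, from 266 ± 8.38 CPM to 437 ± 36.3 CPM (log2 fold change 0.72, adjusted p = 1.61e-07), and FGB was at 4.27, 4.60 and 33.9 CPM in HG-OE replicates 1, 2 and 3 against 0.944 to 1.97 CPM in HG-NC. FOXA2 had 26 to 44 counts in HG-NC and 8, 1 and 224 in HG-OE replicates 1, 2 and 3. It did not pass with all libraries (log2 fold change 1.05, adjusted p = 0.375) and fell by 3.01 without HG-OE replicate 3 (adjusted p = 7.57e-07). Neither of the 2 tested squamous markers passed the test. They were DSC3, with a log2 fold change of -0.14 (adjusted p = 0.458), and SFN, with 0.815 (adjusted p = 0.0686).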
